A study of Homo sapiens with 12 samples.

Results

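The high mobility group (HMG) genes were followed in TIGK cells, a human gingival keratinocyte line immortalized with hTERT, by RNA sequencing of poly(A) RNA. The members were taken by symbol from the table of raw counts: HMGB1, HMGB2, HMGB3, HMGA1, HMGA2, HMGN1, HMGN2, HMGN3, HMGN4, and HMGN5, which are 10 of the 58735 genes listed. All 10 had counts, and all 10 passed edgeR's filter on low counts in each comparison. The cells were kept at 48 mM glucose in a medium made without L-arginine (Arg), and received either 500 μM Arg or none for 24 or 48 h. The 4 groups were the untreated control at 24 h, Arg at 24 h, the untreated control at 48 h, and Arg at 48 h, with 3 libraries (A, B, and C) each, 12 in all. All groups shared the high glucose and the same line, so neither a normal-glucose state nor another donor was covered. Cells were seeded in plate wells, which points to separate wells for the replicates, and nothing states that these came from independent experiments, so the p-values measure the spread between these libraries, which may be technical.

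HMG proteins are abundant non-histone chromatin proteins that change the shape or the compaction of DNA without reading a specific gene. HMGA proteins hold AT hooks that grip the minor groove of AT-rich DNA. HMGB proteins hold HMG boxes that bend DNA, and HMGB1 also acts as an alarm signal outside the cell. HMGN proteins bind the nucleosome itself and compete with the linker histone H1. HMGA1 and HMGA2 are known for high levels in embryonic and dividing cells, HMGB2 for its link to proliferation, and HMGA2 as a classic target of the let-7 microRNAs.

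The libraries held 16542243 to 19040964 counts, of which the HMG genes took 0.355% to 0.452%. All 15 keratinocyte markers were expressed, with a summed level of 46566 to 59219 CPM (counts scaled for library depth, after TMM normalization). Of 8 fibroblast markers, 3 had a mean above 1 CPM. The summed fibroblast level was 29.7 to 53.4 CPM at 24 h and 71.9 to 102 CPM at 48 h, nearly all of it DCN and COL1A1, while COL1A2, COL3A1, PDGFRA, THY1, and POSTN were at or near 0, with means of 0.0050 to 0.065 CPM. Of the other lists, 2 of 6 melanocyte, 0 of 4 endothelial, and 1 of 6 leukocyte markers had a mean above 1 CPM, with TYR, LYZ, and MS4A1 at 0 in all 12 libraries. Control library B at 48 h stood apart. Its chi-square per degree of freedom was 20.9 against library A and 23.9 against library C, and that between A and C was 3.66. It also had the highest share of mitochondrial counts, 1.55%, with 0.906% and 0.707% in A and C. At 24 h that share was 1.20% to 1.30% in the control and 0.624% to 0.802% with Arg, and with Arg at 48 h it was 1.14% to 1.31%. In bulk RNA, fewer cells of a kind and less RNA per cell cannot be told apart, which holds for every level below.

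To compare genes with each other, levels were divided by the exonic length in kb given with the counts. HMGA1 was the highest member in all 4 groups, at 863 ± 94.0 CPM per kb (SD, n = 3) in the control at 24 h, and HMGN2 was second at 239 ± 7.01. HMGB1 followed at 112 ± 6.82 CPM per kb. HMGN1 and HMGN3, at 80.4 ± 1.95 and 78.9 ± 2.89, did not differ beyond their spread, and HMGB2 lay below them at 68.5 ± 2.37. HMGB3 at 24.7 ± 0.504 and HMGN4 at 21.2 ± 0.254 came next. HMGA2 at 7.30 ± 2.71 and HMGN5 at 2.05 ± 0.444 CPM per kb were the lowest. The order was not the same in every group. With Arg at 24 h, HMGB2 stood 4th at 104 ± 4.05 CPM per kb. With Arg at 48 h, HMGN3 at 117 ± 8.21 and HMGB1 at 110 ± 4.52 lay within each other's spread, and HMGN5 at 5.08 ± 0.261 lay above HMGA2 at 2.17 ± 0.191. The length is that of all listed exons together, 15403 bases for HMGA2, so a gene expressed mainly as a shorter isoform reads low on this scale.

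**Figure D1:**
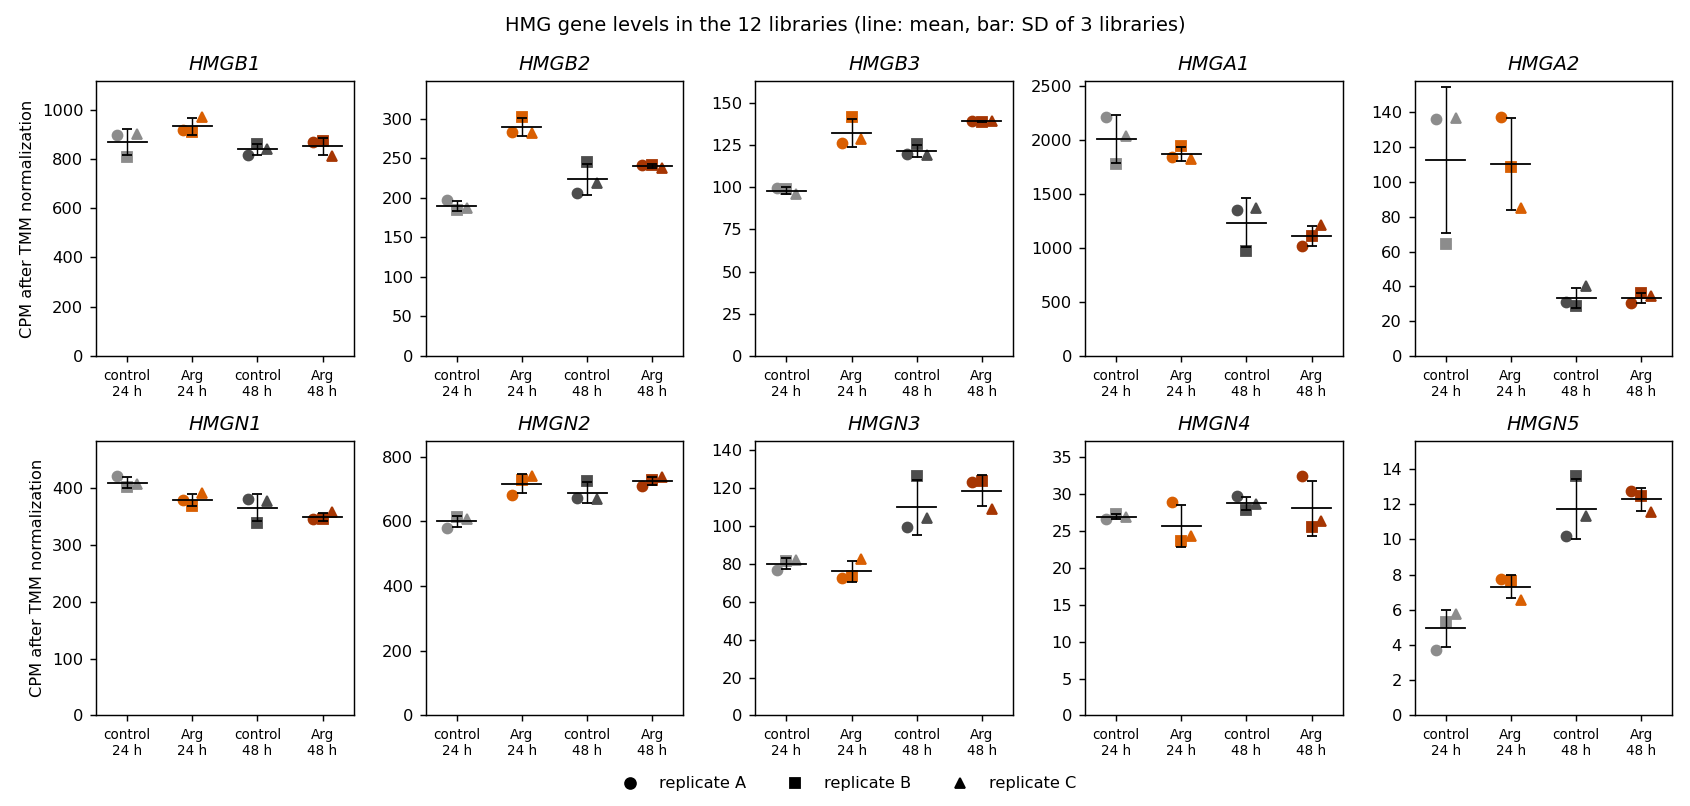
Level of each HMG gene in CPM after TMM normalization (vertical axes, linear and starting at 0) in the 4 groups, with 1 point per library, the mean as a line, and the SD of 3 libraries as a bar. HMGA1 and HMGA2 were lower in all 6 libraries at 48 h than in all 6 at 24 h, HMGN3 and HMGN5 were higher, and HMGB2 was highest in the 3 Arg libraries at 24 h.

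The makeup of the family differed between the times. Summed per kb, the HMGA genes made up 58.0% ± 2.70 (SD, n = 3) of the HMG level in the control at 24 h and 42.9% ± 5.80 at 48 h. With Arg, they made up 53.0% ± 1.12 at 24 h and 39.5% ± 2.31 at 48 h. The HMGA share was 51.7% to 60.6% in the 6 libraries at 24 h and 36.2% to 46.3% in the 6 at 48 h, with no overlap. The HMGN genes went the other way, from 28.3% ± 2.35 to 39.2% ± 3.98 in the control and from 30.1% ± 0.992 to 41.4% ± 1.40 with Arg. The HMGB genes made up 13.7% ± 0.348, 16.9% ± 0.129, 17.9% ± 1.83, and 19.1% ± 0.909 in the control at 24 h, Arg at 24 h, the control at 48 h, and Arg at 48 h. The HMGA sum itself was 870 ± 96.5 and 532 ± 97.4 CPM per kb in the control at 24 and 48 h, while the HMGN sum was 422 ± 8.52 and 482 ± 22.1. The HMGB sum was 206 ± 8.43 and 220 ± 10.9 in the control at 24 and 48 h, and 258 ± 4.93 and 232 ± 5.27 with Arg. With Arg, the HMGB share was thus higher at 48 h than at 24 h while the HMGB sum was lower.

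**Figure D2:**
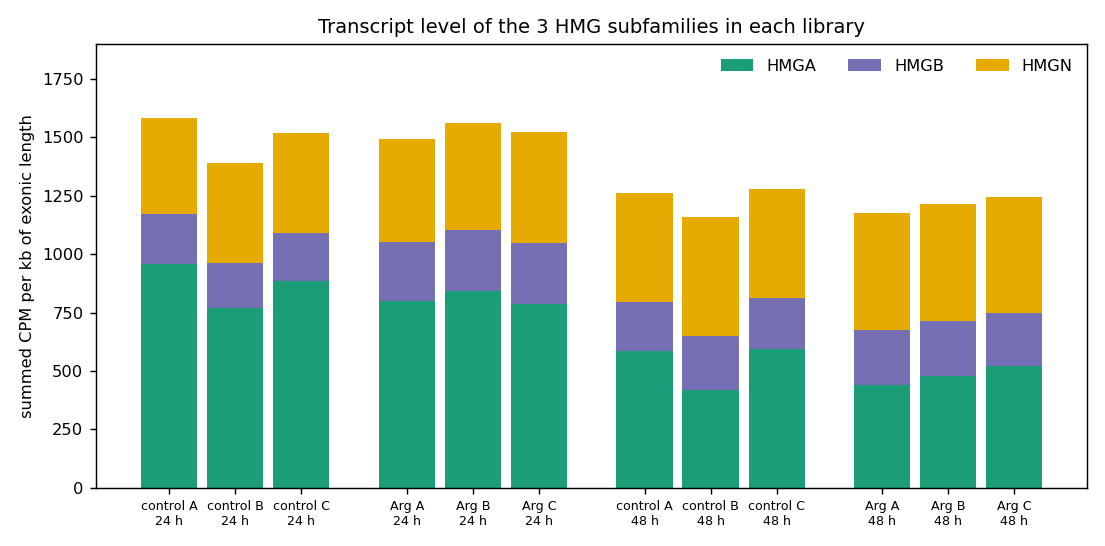
Summed level of the HMGA, HMGB, and HMGN genes in CPM per kb of exonic length (vertical axis, starting at 0), stacked for each of the 12 libraries. The HMGA part was 768 to 960 in the controls at 24 h and 420 to 593 in those at 48 h, while the HMGN part was 412 to 427 and 468 to 507.

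HMGA2, on chromosome 12 (GRCh38, chr12:65824131-65966295, + strand), had the largest change of the members. It was at 136, 64.2, and 137 CPM in control libraries A, B, and C at 24 h and at 137, 108, and 84.8 CPM with Arg. By 48 h it was at 31.0, 28.8, and 40.0 CPM in the control and at 30.2, 35.9, and 34.3 CPM with Arg. Every library at 48 h lay below every library at 24 h, and control library B at 24 h was far below its replicates. Between 24 and 48 h, HMGA2 was downregulated in the control (log2 fold change −1.76, SE 0.24, edgeR adjusted p = 0.00159) and with Arg (−1.72, SE 0.13, edgeR adjusted p = 2.05e-08). The interaction of Arg and time was 0.04 on the log2 scale, with a 95% interval of −0.58 to 0.66. At a given time Arg left HMGA2 within the spread of the libraries, with a log2 fold change of −0.03 (SE 0.21) at 24 h and 0.01 (95% interval −0.26 to 0.27, edgeR adjusted p = 0.984) at 48 h.

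HMGA2 is the member with the most let-7 seed matches in its 3′ UTR, and these are shown because HMGA2 is the gene that fell most. Mature let-7 was not measured, since the libraries were made from poly(A) RNA. From RefSeq, 9 mature human miRNAs were taken by name, the let-7 5p forms and miR-98-5p. They share the let-7 seed (bases 2 to 8, in capitals), and 3 are given 5′ to 3′. Other miRNAs were not searched for this seed.
let-7a-5p: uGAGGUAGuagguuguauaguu
let-7d-5p: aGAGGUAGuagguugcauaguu
miR-98-5p: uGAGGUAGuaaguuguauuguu
The 3′ UTR of the canonical HMGA2 transcript in GENCODE v44 is 2999 bases long and holds the complement of this seed, CTACCTC, 4 times on the sense strand. The matches are given in capitals with the 14 bases before and the base after them, in GRCh38, + strand.
HMGA2 chr12:65963299-65963320: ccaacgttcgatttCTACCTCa
HMGA2 chr12:65964534-65964555: cccactactcaataCTACCTCt
HMGA2 chr12:65964946-65964967: tgacttgcaaagacCTACCTCc
HMGA2 chr12:65965799-65965820: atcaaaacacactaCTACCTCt
The first match begins at base 21 of the 3′ UTR and is followed by A, the base that extends such a match in the usual target rules. HMGA1 has 1 match in 1347 bases of 3′ UTR, and the other 8 members have 0. At least 1 match was found in 9.76% of 19550 canonical 3′ UTRs, and in 14.8% of the 2449 with a length near that of HMGA2. As many as 4 were found in 12 of all and in 2 of those of similar length. A match is a description of the sequence and not evidence of repression, and the isoform in use in TIGK cells cannot be read from gene counts.

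Genes around HMGA2 and let-7 were counted from a list of 14, of which 12 were tested. The list was chosen with earlier results of these data known, so its counts and p-values are a description. In the control, 2 were higher and 2 lower at 48 h than at 24 h, where 19.9% of 14449 tested genes passed the adjusted threshold of 0.05. With Arg, 3 were higher and 2 lower, where 28.3% of 14398 genes passed. LIN28B, which blocks let-7 maturation, was downregulated in the control (log2 fold change −0.47, SE 0.12, edgeR adjusted p = 0.0208) and with Arg (−0.46, SE 0.11, edgeR adjusted p = 0.00277). MYC, a transcription factor of growth, was downregulated over the same time, with −0.74 (SE 0.13, edgeR adjusted p = 0.00418) and −0.82 (SE 0.068, edgeR adjusted p = 6.42e-08). TUT7 and TUT4, which add uridines to the let-7 precursor, were upregulated with log2 fold changes of 0.55 and 0.41 in the control and 0.66 and 0.52 with Arg. IGF2BP1 and IGF2BP3, which bind and stabilize mRNAs, were upregulated by Arg at 24 h, with log2 fold changes of 0.48 (SE 0.091) and 0.47 (SE 0.092), where 6.63% of 14279 genes passed.

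HMGA1 (chr6:34236873-34246231, + strand) was lower at 48 h than at 24 h as well, at a much higher level than HMGA2. The control libraries at 24 h had 2212, 1777, and 2036 CPM and the Arg libraries 1837, 1940, and 1819 CPM. At 48 h the control libraries had 1353, 973, and 1374 CPM and the Arg libraries 1019, 1105, and 1209 CPM. No library at 48 h reached the lowest of 24 h. HMGA1 was downregulated between the times in the control (log2 fold change −0.70, SE 0.12, edgeR adjusted p = 0.00386) and with Arg (−0.75, SE 0.066, edgeR adjusted p = 1.22e-07). At 48 h the difference between Arg and control was −0.15 (SE 0.11, edgeR adjusted p = 0.574), and without control library B, the lowest of its group, it was −0.30 with an edgeR adjusted p of 0.000967. The log2 fold change with Arg at 24 h was −0.11 (SE 0.083). HMGA2 counts were 3.61% to 7.48% of HMGA1 counts in the 6 libraries at 24 h and 2.29% to 3.25% at 48 h, with no overlap.

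HMGB2 (chr4:173331695-173335125, − strand) is a DNA-bending protein with a pair of HMG boxes and belongs to the SET complex. In the control at 24 h it was at 197, 185, and 188 CPM, and with Arg at 24 h at 284, 302, and 282 CPM. The values at 48 h were 206, 245, and 219 CPM in the control and 242, 241, and 238 CPM with Arg. The Arg libraries at 24 h were the highest and did not overlap with any other group, and at 48 h the highest control library lay above all 3 Arg libraries. The fold of Arg over control at 24 h was 1.52 (log2 fold change 0.61, SE 0.075). HMG genes were chosen for a closer look with this value known, so the 24 h differences of the family are given as a description, without p-values. At 48 h the log2 fold change was 0.10 (95% interval −0.05 to 0.25, edgeR adjusted p = 0.567), and without control library B it was 0.17 with an edgeR adjusted p of 0.0378. The change from 24 to 48 h was 0.24 (SE 0.080) in the control and −0.27 (SE 0.064) with Arg, and the interaction was −0.50 (SE 0.10). These 3 values rest partly on the 24 h libraries for which the gene was chosen. Relative to HMGB1 counts in the same library, HMGB2 counts were 20.8% to 22.9% in the control and 29.0% to 33.3% with Arg at 24 h, and 25.3% to 28.4% and 27.6% to 29.3% at 48 h.

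HMGB3 (chrX:150980509-150990775, + strand), the HMG-box member known from stem and progenitor cells, was at 99.4, 99.0, and 95.7 CPM in the control and at 126, 142, and 129 CPM with Arg at 24 h. At 48 h it was at 120, 126, and 119 CPM in the control and at 139 CPM in all 3 Arg libraries. The Arg libraries were above the control libraries at both times, and at 48 h this held for 8.56% of all tested genes. The log2 fold change with Arg was 0.43 (SE 0.081) at 24 h, and at 48 h it was 0.19 (SE 0.061, 95% interval 0.06 to 0.32), with an edgeR adjusted p of 0.223. Without control library B at 48 h it was 0.22 with an edgeR adjusted p of 0.0142. In the control, HMGB3 was higher at 48 h than at 24 h by 0.31 on the log2 scale (SE 0.072), a change that passed the threshold but rests on the same 24 h control libraries. With Arg that change was 0.07 (SE 0.070, edgeR adjusted p = 0.481).

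HMGB1 (chr13:30456704-30617597, − strand), the alarm signal, varied least, by a factor of 1.20 between its lowest and highest library. It was at 897, 807, and 900 CPM in the control and at 917, 910, and 971 CPM with Arg at 24 h. At 48 h it was at 817, 862, and 840 CPM in the control and at 871, 873, and 811 CPM with Arg. Its log2 fold changes were 0.10 (SE 0.075) with Arg at 24 h and 0.02 (95% interval −0.11 to 0.14) with Arg at 48 h. Over time they were −0.04 (95% interval −0.19 to 0.10) in the control and −0.13 (95% interval −0.26 to −0.0011, edgeR adjusted p = 0.126) with Arg. HMGB1 has 48 processed copies listed as pseudogenes, which held 7.85% of the counts of gene and copies together, mainly HMGB1P6 with 9729 and HMGB1P5 with 5107 counts. Reads of such near-identical copies can be split between the rows, so the level of HMGB1 is uncertain, by an amount that this share does not measure. For HMGN2 the share was 1.67%, and for the other members it was at most 0.340%.

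Genes that receive HMGB1 outside the cell, or modify and release it, were counted from lists. These lists were also chosen with earlier results of these data known, so their counts and p-values are a description. Of 14 receptors and adaptors, 8 were tested, and 1 changed with Arg at 24 h, where 6.63% of all tested genes did. This was THBD, the gene of thrombomodulin, which binds HMGB1 on the cell surface, with means of 78.4 CPM in the control and 41.1 CPM with Arg (log2 fold change −0.93, SE 0.11, edgeR adjusted p = 4.43e-05). At 48 h THBD was at 73.2 and 39.0 CPM (−0.91, SE 0.20, edgeR adjusted p = 0.133). Over time, edgeR called 0 of the 8 in either treatment. At an unadjusted p under 0.05 it called 1 in each, beside 4926 of 14449 tested genes in the control and 5546 of 14398 with Arg. Of 13 tested genes of HMGB1 modification and release, CASP1, a protease of inflammasomes, was downregulated by Arg at 24 h (log2 fold change −0.59, SE 0.11, edgeR adjusted p = 0.00458), as was SIRT1, a deacetylase (−0.40, SE 0.096, edgeR adjusted p = 0.0173). Over time, 2 of these 13 were higher and 3 lower in the control, and 4 were higher and 1 lower with Arg. Of all tested genes, 9.9% were called higher and 10% lower in the control, and 14.3% and 14% with Arg. The deacetylase HDAC1 was among the higher ones in both, with log2 fold changes of 0.28 and 0.32. Other deacetylases were among the lower ones, HDAC2 (−0.30) and SIRT1 (−0.35) in the control and HDAC3 (−0.23) with Arg.

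HMGN5 (chrX:81113701-81201942, − strand), a nucleosome binder with a long acidic tail, was the lowest member in CPM and had the largest rise over time. It was at 3.73, 5.30, and 5.79 CPM in the control and at 7.75, 7.62, and 6.55 CPM with Arg at 24 h. It had risen at 48 h to 10.2, 13.6, and 11.4 CPM in the control and to 12.8, 12.5, and 11.6 CPM with Arg. All 6 libraries at 48 h were above all 6 at 24 h, and at 24 h the Arg libraries were above the controls. The rise between the times was 2.38-fold in the control (log2 fold change 1.25, SE 0.20, edgeR adjusted p = 0.00303) and 1.68-fold with Arg (0.75, SE 0.15, edgeR adjusted p = 0.000870). Both values rest partly on the 24 h libraries on which the family was picked. The interaction of −0.50 had a 95% interval of −1.0 to 0.0080. With Arg, the log2 fold change was 0.56 (SE 0.20) at 24 h and 0.06 (95% interval −0.25 to 0.38, edgeR adjusted p = 0.881) at 48 h.

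HMGN3 (chr6:79201245-79234738, − strand) binds nucleosomes and is known from neural and endocrine tissue. It was at 76.7, 81.3, and 82.1 CPM in the control and at 72.4, 73.4, and 82.4 CPM with Arg at 24 h. Levels at 48 h were 99.1, 126, and 104 CPM in the control and 123, 124, and 109 CPM with Arg. As with HMGN5, the libraries of the 2 times did not overlap. HMGN3 was upregulated over time with log2 fold changes of 0.46 in the control (SE 0.096, edgeR adjusted p = 0.00848) and 0.64 with Arg (SE 0.080, edgeR adjusted p = 7.91e-06). With Arg, it differed by −0.07 (SE 0.086) at 24 h and by 0.11 (SE 0.093, edgeR adjusted p = 0.643) at 48 h, and without control library B at 48 h by 0.22 with an edgeR adjusted p of 0.0280. An antisense gene, HMGN3-AS1, overlaps it and held 456 counts against 20953 of HMGN3. The strand setting of the counting is not stated, so reads of the pair may not be told apart.

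HMGN2 (chr1:26472450-26475972, + strand), the most abundant nucleosome binder of the family, was at 580, 613, and 607 CPM in the control and at 683, 729, and 739 CPM with Arg at 24 h. The 48 h values were 672, 725, and 668 CPM in the control and 711, 727, and 737 CPM with Arg. The control at 24 h was below all other groups, which overlapped with each other. With Arg the log2 fold change was 0.26 (SE 0.072) at 24 h and 0.07 (95% interval −0.05 to 0.20, edgeR adjusted p = 0.621) at 48 h. Over time it was 0.20 (SE 0.067) in the control and 0.02 (95% interval −0.11 to 0.14, edgeR adjusted p = 0.871) with Arg.

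HMGN1 (chr21:39342315-39349647, − strand) was at 421, 402, and 407 CPM in the control and at 379, 370, and 391 CPM with Arg at 24 h, and at 381, 338, and 378 CPM and 347, 345, and 358 CPM at 48 h. All Arg libraries at 24 h lay below the controls (log2 fold change −0.11, SE 0.072). Over time the log2 fold change was −0.16 (SE 0.071, edgeR adjusted p = 0.132) in the control and −0.12 (SE 0.062, edgeR adjusted p = 0.166) with Arg. HMGN4 (chr6:26538405-26546254, + strand), which arose as a copy of HMGN2, was at 23.6 to 32.4 CPM in the 12 libraries. Its 4 log2 fold changes lay between −0.07 and 0.14, with edgeR adjusted p-values of 0.406 to 0.922 in the comparisons at 48 h and over time.

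**Figure D3:**
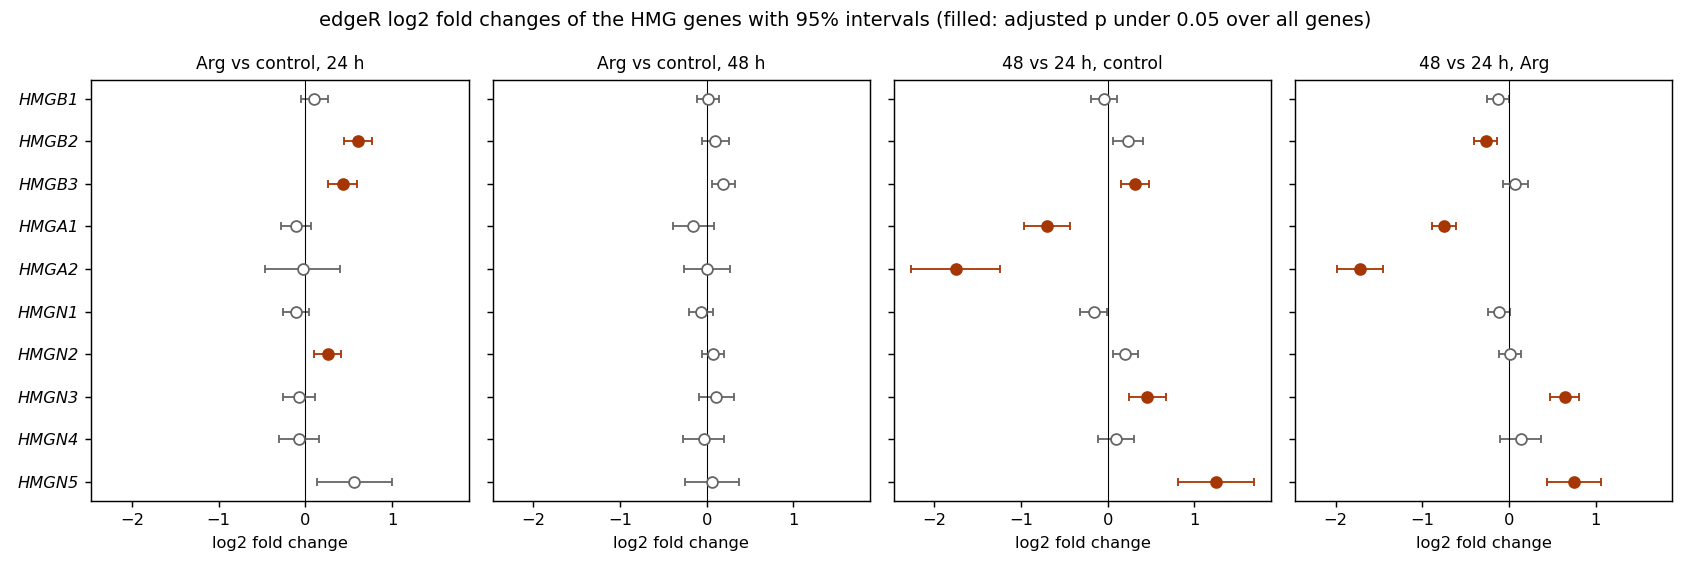
Log2 fold changes of the 10 HMG genes in 4 comparisons from edgeR (horizontal axes), with 95% intervals as bars and filled points for an adjusted p under 0.05 over all tested genes. HMGA2 was at −1.76 and −1.72 over time, HMGN5 at 1.25 and 0.75, and in the comparison of Arg and control at 48 h no point is filled. The family was picked on the comparison of Arg and control at 24 h, so the filled points there are a description only.

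In all, 5 members changed over time in the control, 3 higher (HMGB3, HMGN3, and HMGN5) and 2 lower (HMGA1 and HMGA2), where 9.9% of the tested genes were called higher and 10% lower. With Arg, 2 were called higher (HMGN3 and HMGN5) and 3 lower (HMGA1, HMGA2, and HMGB2), where 14.3% and 14% of all tested genes were. The median log2 fold change of the 10 members was 0.15 in the control and −0.05 with Arg, beside 0.01 and 0.00092 over all tested genes. Non-overlapping libraries were seen in 9 members in the control and 7 with Arg, and in 39% and 42.2% of all tested genes. The 2 time comparisons share no library, but each shares libraries with the comparisons of Arg and control. The family was picked on that comparison at 24 h, so the time counts rest partly on those libraries. HMGB3 and HMGB2, called here, were also called with Arg at 24 h. No reading is drawn from the time counts. The fibroblast markers DCN and COL1A1 moved with time as well, from 15.2 to 38.9 CPM at 24 h to 47.2 to 76.1 CPM at 48 h for DCN, and their part in these changes was not tested.

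With Arg at 24 h, 3 members were called, all higher, namely HMGB2, HMGB3, and HMGN2, where 2.79% of 14279 tested genes were called higher and 3.84% lower. No reading is drawn from this count, since the family was picked on this comparison. In 5 members all Arg libraries lay above all controls and in 1 all lay below, beside 12.9% and 13.4% of all genes. The median log2 fold change of the members was 0.03, beside 0.0030 over all tested genes. The share of mitochondrial counts was lower in the Arg libraries at this time, and its part in the differences was not tested. At 48 h 0 members were called in edgeR and 0 in DESeq2, where edgeR called 0.117% of 14562 genes. At an unadjusted p under 0.05, HMGB3 alone was called, beside 13.4% of all genes. Without control library B at 48 h, 4 members were called, HMGB2, HMGB3, and HMGN3 higher and HMGA1 lower, where 15.9% of all tested genes were called. The interaction of Arg and time was called in 0 members by edgeR, beside 0.0132% of 15148 genes, and at an unadjusted p under 0.05 it was negative in HMGB2, HMGB3, and HMGN2, beside 3.8% of all genes. These are the 3 members called at 24 h, and the interaction contains that difference, so no reading is drawn from this count either.

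HMGB2 is known as a gene of dividing cells, so its values are set beside a list of 15 genes of G2 and mitosis and another of 15 genes of S phase. Both lists were chosen with earlier results of these data known, so their counts are a description. With Arg at 24 h, 6 of the 15 G2/M genes were higher and 0 lower, with a median log2 fold change of 0.22, where 2.79% of all tested genes were called higher and 3.84% lower. These included TOP2A (0.37, SE 0.076), the topoisomerase that separates sister DNA, TPX2 (0.35, SE 0.073), a spindle assembly factor, the proliferation marker MKI67 (0.53, SE 0.12), and the kinetochore gene CENPF (0.44, SE 0.10). Of the S phase genes, edgeR called 0 of 15, with a median of 0.12. At an unadjusted p under 0.05 it called 4, all higher, beside 3253 of 14279 tested genes in either direction. At 48 h edgeR called 0 of either list with Arg, with medians of −0.0017 and −0.02. At an unadjusted p under 0.05 it called 2 G2/M genes and 1 S phase gene, beside 13.4% of all tested genes. Over time with Arg, 12 of the 15 G2/M genes were lower and 0 higher, with a median of −0.31, and in the control 6 were lower and 2 higher, with a median of −0.09. Of all tested genes, 14% were called lower over time with Arg, and 10% lower and 9.9% higher in the control. With Arg over time, UBE2C, which drives mitotic exit, was at −0.60 (SE 0.069) and the mitotic kinase AURKB at −0.58 (SE 0.069). MKI67 was 1 of the 2 that were higher in the control, with 0.42 (SE 0.097). Among the S phase genes, 3 were higher and 1 lower over time in the control, with a median of 0.08. With Arg, 2 of these were higher and 3 lower, with a median of −0.09, where 14.3% of all tested genes were called higher. HMGB2 itself had a log2 fold change of 0.61 with Arg at 24 h, the value known when the family was chosen, and of −0.27 over time with Arg, which shares those Arg libraries. In the control over time HMGB2 went the other way from the G2/M median of −0.09, with 0.24 (SE 0.080). Whether the share of dividing cells differed between the groups was not tested.

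**Figure D4:**
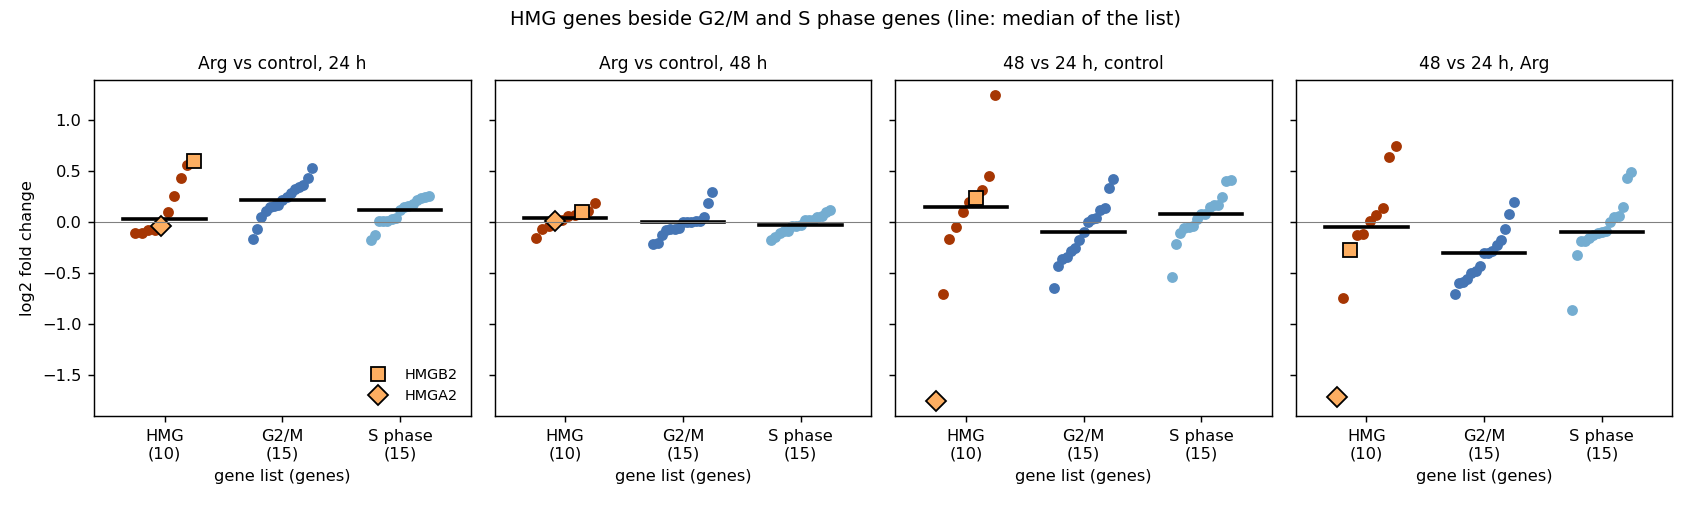
Log2 fold changes (vertical axis) of the 10 HMG genes, 15 G2/M genes, and 15 S phase genes in 4 comparisons, 1 point per gene sorted within its list, with the list's median as a line and HMGB2 and HMGA2 marked by a square and a diamond. The G2/M median was 0.22 with Arg at 24 h and −0.31 over time with Arg, and HMGA2 lay below all other points over time.

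The genes that work with the HMG proteins gave further values. Their lists too were chosen with earlier results of these data known, so their counts and p-values are a description. Of 6 tested partners of HMGB2 in the SET complex, 4 were lower over time with Arg and 0 higher, and 2 were lower in the control, where 14% and 10% of all tested genes were called lower. SET, a histone-binding oncoprotein, was downregulated with Arg (log2 fold change −0.32, SE 0.061, edgeR adjusted p = 0.000620) and in the control (−0.24, SE 0.072, edgeR adjusted p = 0.0380), and the nucleoside kinase NME1 was at −0.55 and −0.31. With Arg at 24 h, edgeR called 0 of the 6. At an unadjusted p under 0.05 it called 2, both higher, beside 3253 of 14279 tested genes in either direction. Of 6 tested linker histones, which HMGN proteins compete with, H1F0 was downregulated over time in the control (log2 fold change −0.39, SE 0.11, edgeR adjusted p = 0.0311) and with Arg (−0.66, SE 0.078, edgeR adjusted p = 4.38e-06), while HIST1H1C was upregulated in the control (0.60, SE 0.14, edgeR adjusted p = 0.0135). Replication-dependent histone mRNAs mostly lack a poly(A) tail, so poly(A) libraries hold few of them. Of 29 or 30 other tested genes with an HMG box, 2 were higher and 2 lower with Arg at 24 h, edgeR called 0 at 48 h and 1 at an unadjusted p under 0.05, and over time 5 were higher and 4 lower in the control and 6 higher and 2 lower with Arg. The shares of all tested genes called in either direction were 6.63% with Arg at 24 h, and over time 19.9% in the control and 28.3% with Arg. With Arg at 48 h, 13.4% of all tested genes had an unadjusted p under 0.05. SOX9, a transcription factor of epithelial progenitors, was at 38.2, 23.3, 15.9, and 13.99 CPM in the control at 24 h, Arg at 24 h, the control at 48 h, and Arg at 48 h. It was downregulated with Arg at 24 h (log2 fold change −0.71, SE 0.13, edgeR adjusted p = 0.00258). Over time it was downregulated in the control (−1.26, SE 0.14, edgeR adjusted p = 0.000884) and with Arg (−0.74, SE 0.13, edgeR adjusted p = 0.000367). UBTF, an HMG-box factor of ribosomal RNA genes, was upregulated with Arg at 24 h (0.36, SE 0.11, edgeR adjusted p = 0.0474) and over time in the control (0.42, SE 0.10, edgeR adjusted p = 0.0155).

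The promoters of HMGA1, which fell over time, and of HMGN3 and HMGN5, which rose, are shown because each of these genes passed the threshold over time both with and without Arg. They are the 250 bases before the RefSeq start site (GRCh38.p14), 5′ to 3′ on the gene's strand, for the first start site listed. Capitals mark GGGCGG (the GC box), CCAAT, and TTTGAA (a cell cycle element), or their complements.
HMGA1 chr6:34236623-34236872, + strand: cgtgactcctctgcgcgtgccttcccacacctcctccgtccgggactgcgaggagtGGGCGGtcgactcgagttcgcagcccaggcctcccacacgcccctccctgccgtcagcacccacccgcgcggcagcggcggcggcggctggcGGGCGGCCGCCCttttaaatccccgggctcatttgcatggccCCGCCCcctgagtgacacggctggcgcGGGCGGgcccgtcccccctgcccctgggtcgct
HMGN3 chr6:79234683-79234932, − strand: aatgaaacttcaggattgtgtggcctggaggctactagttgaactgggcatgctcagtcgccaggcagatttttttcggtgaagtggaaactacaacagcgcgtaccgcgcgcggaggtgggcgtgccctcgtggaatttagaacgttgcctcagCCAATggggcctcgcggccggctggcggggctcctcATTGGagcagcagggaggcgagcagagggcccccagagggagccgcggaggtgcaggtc
HMGN5 chrX:81201914-81202163, − strand: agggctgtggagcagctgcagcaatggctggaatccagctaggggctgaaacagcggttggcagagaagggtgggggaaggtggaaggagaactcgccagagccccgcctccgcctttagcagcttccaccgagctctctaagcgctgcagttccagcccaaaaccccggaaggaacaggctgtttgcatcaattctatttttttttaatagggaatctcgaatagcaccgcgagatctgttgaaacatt
The HMGA1 sequence holds 5 GC boxes on both strands counted together and no CCAAT, with 74.8% G and C. That of HMGN3 holds 2 CCAAT boxes, 1 on each strand, and no GC box. That of HMGN5 holds none of the 3 motifs and has 54.0% G and C. HMGA1 has another listed start site, whose window holds 0 GC boxes and 1 CCAAT, with 51.2% G and C. Which start site is in use cannot be read from gene counts. Among 35116 RefSeq promoters of this length, 42.6% hold GGGCGG, 32.0% hold CCAAT, and 13.3% hold TTTGAA on either strand. Of the 10 members, 8 have a promoter entry and HMGB2 and HMGA2 do not. A missing motif says only that these letters are not in this window.

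Lastly, the genes with the most similar pattern were ranked among 8982 protein-coding genes with a mean of at least 10 CPM, by Pearson's r of log2 CPM over the 12 libraries. The libraries fall into 4 groups, so r mostly follows the group means, and the value after subtracting each group's mean is given beside it, as a description without a test. For HMGA1 the closest were FKBP4 (r = 0.995, within groups 0.972), a chaperone partner, and BOP1 (0.994, within groups 0.970), a ribosome assembly factor. For HMGA2 they were HSPD1 (0.989, within groups 0.921), the mitochondrial chaperonin, and AUP1 (0.985, within groups 0.911). For HMGB2 they were TRNP1 (0.957, within groups 0.567) and NOL8 (0.956, within groups 0.752), and the third, CDCA2 (0.945, within groups 0.634), is a cell division gene. HMGB3 was closest to JPH2 (0.966, within groups 0.433), HMGN2 to ZFYVE26 (0.977, within groups 0.868), and HMGN3 to ITM2B (0.980, within groups 0.891). HMGN1 was closest to MLST8 (0.971, within groups 0.922) and HMGB1 to H3F3B (0.919, within groups 0.876), a histone H3.3 gene. HMGN4 had the lowest best value, with RMDN1 (0.815, within groups 0.816), and HMGN5 was below the level needed.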

How the data were processed

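RNA sequencing libraries of TIGK cells at 48 mM glucose, grown with 500 μM Arg or without it and sampled at 24 and 48 h, were analysed in 4 groups of 3, taken from their labels. The counts were made and deposited by the authors with fastp, STAR (GRCh38/hg38), and featureCounts, as raw integers with exonic lengths. Versions, annotation release, and strand setting are not given in the sources used here. Totals were 16542243 to 19040964 counts.

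Each pair of groups was compared with edgeR 4.0.16 in R 4.3.3 (TMM, filterByExpr with a minimum count of 10, quasi-likelihood test, no block), and the interaction was fitted in all 12 libraries. The p-values were adjusted by Benjamini–Hochberg over all tested genes with a threshold of 0.05, and SE is the absolute log2 fold change divided by the root of F. DESeq2 1.42.0, other filters and scalings, a replicate block, and leaving out each library were alternatives. The scripts were tested on simulated data.

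The members and the gene lists were chosen with earlier results of these data known. All 10 members are named, with at most 4 genes of smallest p per list and comparison among those passing. For 1 gene, the smallest exact two-sided permutation p that 3 against 3 libraries allow is 0.1. The let-7 matches were searched in 3′ UTRs of GENCODE v44, which may differ from the authors' annotation, and miRNAs and promoters are from RefSeq.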

Additional observations from a re-analysis of the deposited data

How the results depend on the processing

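The number of members called with Arg at 24 h was 3 in each alternative with all libraries and 2 to 3 with 1 library left out, since HMGN2 (log2 fold change 0.23 to 0.29) was lost without control library A or C or Arg library B or C. The family was picked on this comparison in the same libraries, so the steadiness of its calls is no support for them. At 48 h it was 0 in each alternative with all libraries and 0 to 4 with 1 left out, the 4 being without control library B. In the control over time it was 5, and 3 to 6 with 1 left out: HMGB3 and HMGN3 were lost without control library A of 24 h and HMGB3 without C. It was 7 in DESeq2, with at least 10 counts in every library, with all 12 libraries in 1 model, and with the replicate block, where HMGB2 and HMGN2 were added, and 6 with pseudogene counts added to the members, where HMGN2 was added. With Arg over time it was 5 throughout. The interaction was called in 1 member, HMGB2, by DESeq2 and without a filter on low counts, where HMGN5 had no adjusted value in DESeq2, and in 0 to 1 with 1 library left out, the 1 being without control library B of 48 h. The deviations from the group means of libraries with the same letter correlated weakly (−0.061 to 0.13). In the control over time these correlations were 0.027 to 0.13, all positive. Whether the letters mark anything shared is not stated. With the replicate block, 3, 0, 7, 5, and 0 members were called in the 5 comparisons, and HMGA2 with Arg at 24 h turned to 0.018. With the block, 28% of all tested genes were called in the control over time, beside 19.9% without it. For Arg and control at 48 h, these shares were 1.26% and 0.117%. Of 339 other values under alternatives with all libraries, 327 kept direction and side of the threshold, 11 newly passed, and 1 reversed. With 1 library left out, 26 of 360 reversed: HMGA2 with Arg at 24 h (−0.32 to 0.13), HMGB1 (−0.0022 to 0.055), HMGA2 (−0.086 to 0.16), HMGN4 (−0.15 to 0.031), and HMGN5 (−0.026 to 0.19) with Arg at 48 h, HMGN2 over time with Arg (−0.020 to 0.038), and the interactions of HMGA1 (−0.19 to 0.047), HMGA2 (−0.12 to 0.33), HMGN1 (−0.0092 to 0.075), and HMGN4 (−0.075 to 0.14). The causes were not tested. HMGN5, with 1979 counts in all 12 libraries, was the member with the fewest counts, so its values carry the most counting error.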
